A study of Rattus norvegicus with 69 samples.

Results

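This comparison set the livers of the BWM group (n = 8) against the livers of the Lean group (n = 6), and its members are the libraries whose labels carry those group names, 14 of the 69 liver mRNA libraries of the series. All 14 came from liver of male Wistar rats, all carry the batch label A, and one library stands for one replicate. The labels give no diet, agent, operation, age or body weight for either group, do not spell out BWM, and do not state that each library came from another rat, so p-values measure the spread between libraries. The series also holds animals with gastric bypass, sham surgery, saline, liraglutide, PYY and both agents, of which the 27 bypass, sham, saline and PYY_Lira libraries of batch A are used below as levels only.

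Liver makes fatty acids from sugar when food is plentiful. Carbohydrate carbon passes through glycolysis to citrate, acetyl-CoA carboxylase and fatty acid synthase build a saturated chain with NADPH from malic enzyme and the pentose phosphate pathway, and elongases and stearoyl-CoA desaturases lengthen and desaturate it before it is stored as triglyceride. Insulin raises many of these genes through the transcription factor SREBP-1c, and glucose raises many through ChREBP. The liver also turns cholesterol into bile acids, through cytochrome P450 enzymes of a classic and an alternative pathway.

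Expression is given as CPM, a gene's count as a share of the library's TMM-scaled total, expressed per 1e6 counts, and the groups were compared with edgeR's quasi-likelihood test with p-values adjusted by Benjamini and Hochberg over all 15215 genes tested. Total counts were 18898785 to 26248686 in BWM libraries and 18037046 to 25062189 in Lean libraries. On the first principal component of the 14 libraries, with 24.2% of the variance, Lean replicate 1 lay at -67.4, against -22.5 to 39.8 for the other 13 libraries. All 12 hepatocyte markers on the list were detected, none was called, 9 had a negative log2 fold change and their median was -0.08.

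At an adjusted p under 0.05, 198 genes (1.3% of those tested) differed between BWM and Lean livers, 72 of them higher in BWM (0.473%) and 126 lower (0.828%). Of these, 103 genes (0.677%) differed by 2-fold or more, 34 higher (0.223%) and 69 lower (0.453%). The 8 BWM libraries lay all above the 6 Lean libraries in 47 of the genes tested (0.309%) and all below them in 88 (0.578%). Over all genes tested the median log2 fold change was 0.01 and 51.9% of genes had a positive one. Leaving out Lean replicate 1 gave 177 genes at an adjusted p under 0.05 (59 higher and 118 lower), 80 of them with a difference of 2-fold or more, while leaving out Lean replicate 3 gave 106 (30 higher and 76 lower) and leaving out Lean replicate 4 gave 115 (33 higher and 82 lower). The number higher was 47 without BWM replicate 2 and 45 without BWM replicate 6, and the number of genes that differed by 2-fold or more was 67 without Lean replicate 3.

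The genes that fell furthest lay partly side by side in the genome. All 4 stearoyl-CoA desaturase genes in the count table, at chr1:263968156-264173061 of Rnor_6.0, fell, and so did Sult4a1, Pnpla5 and Pnpla3, which follow one another at chr7:124958546-125056165. The 150 bases before the annotated start of 6 of these genes, and of 2 further genes with large falls, Sdr16c6 and Igfn1, are shown. They are given as RefSeq has them for GRCr8, 5′ to 3′ on the strand of the gene. The windows do not follow the rank of the falls. Tsx (log2 fold change -3.88), LOC103694063 (-3.35) and Ppp1r3g (-3.33), not shown, fell further than Scd4 (-3.04) and Scd2 (-1.06). Capitals mark CCAAT (the sequence bound by NF-Y), GGGCGG (a GC box) and TCACNCCAC (a sterol regulatory element), each on either strand.
Scd (chr1:253231732-253231881, minus strand): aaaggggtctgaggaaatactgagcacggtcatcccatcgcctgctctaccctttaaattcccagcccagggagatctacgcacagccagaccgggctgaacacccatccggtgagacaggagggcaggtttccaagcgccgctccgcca
Scd2 (chr1:253118227-253118376, plus strand): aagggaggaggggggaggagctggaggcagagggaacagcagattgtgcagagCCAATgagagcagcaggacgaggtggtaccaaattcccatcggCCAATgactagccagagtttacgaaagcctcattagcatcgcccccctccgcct
Scd3 (chr1:253027903-253028052, plus strand): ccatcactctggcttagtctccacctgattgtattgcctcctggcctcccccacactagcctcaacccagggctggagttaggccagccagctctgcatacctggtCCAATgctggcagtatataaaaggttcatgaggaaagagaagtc
Scd4 (chr1:253152369-253152518, plus strand): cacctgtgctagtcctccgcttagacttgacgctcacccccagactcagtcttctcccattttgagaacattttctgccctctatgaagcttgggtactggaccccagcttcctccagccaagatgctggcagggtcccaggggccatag
Pnpla5 (chr7:117137037-117137186, minus strand): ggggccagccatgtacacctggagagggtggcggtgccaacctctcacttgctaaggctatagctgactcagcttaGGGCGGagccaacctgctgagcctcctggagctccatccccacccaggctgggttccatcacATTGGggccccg
Pnpla3 (chr7:117173378-117173527, plus strand): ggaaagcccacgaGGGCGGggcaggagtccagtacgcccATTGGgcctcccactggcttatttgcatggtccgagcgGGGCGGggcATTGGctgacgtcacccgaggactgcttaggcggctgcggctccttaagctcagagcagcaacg
Sdr16c6 (chr5:21916289-21916438, minus strand): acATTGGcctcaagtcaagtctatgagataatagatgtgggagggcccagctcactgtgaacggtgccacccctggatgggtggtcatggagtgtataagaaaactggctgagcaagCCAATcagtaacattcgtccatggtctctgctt
Igfn1 (chr13:49979204-49979353, minus strand): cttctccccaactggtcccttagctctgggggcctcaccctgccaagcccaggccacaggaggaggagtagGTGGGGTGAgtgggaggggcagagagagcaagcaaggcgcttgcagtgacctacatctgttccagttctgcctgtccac
CCAAT was in 23.5% of all 33469 promoter windows of that length, GGGCGG in 26% and TCACNCCAC in 0.621%. Of the 8 windows shown, 5 hold CCAAT, 2 hold GGGCGG and 1, that of Igfn1, holds TCACNCCAC at -79 on the opposite strand. CACGTG, an E-box that was searched as well and is in 3.74% of windows, is in none of the 8. In all, the windows of 23 genes were searched, those shown among them, and 11 held CCAAT, 6 GGGCGG and 1 TCACNCCAC. Those with CCAAT included Idh2 and Mecr, which were higher in BWM. The entry listed as LOC681458 in the count table has the gene identifier that RefSeq now names Scd3.

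Stearoyl-CoA desaturases put the first double bond into palmitic and stearic acid. Scd, the abundant family member in these livers, had 27.5 to 720.2 CPM (median 205) in BWM libraries and 2204 to 4208 CPM (median 2413) in Lean libraries. The lowest Lean library was above the highest BWM library, and the level was 11.3-fold lower in BWM (log2 fold change -3.49 ± 0.54 SE, adjusted p = 0.0046). Scd3 had 0.075 to 1.16 CPM (median 0.49) in BWM and 3.76 to 12.6 CPM (median 6.54) in Lean, again without overlap (-3.73 ± 0.42 SE, adjusted p = 0.00064). Scd4 had 0.0375 to 0.416 CPM (median 0.166) in BWM, against 0.475 to 3.42 CPM (median 1.38) in Lean (-3.04 ± 0.46 SE, adjusted p = 0.0036). Scd2, the desaturase best known from brain, had 4.71 to 9.08 CPM (median 6.48) in BWM and 9.03 to 20.7 CPM (median 13) in Lean. Its highest BWM library just exceeded the lowest Lean library, and its fall was the smallest of the family (-1.06 ± 0.18 SE, adjusted p = 0.0084). Per kilobase of exon, median levels in BWM were 42.9 CPM for Scd and 0.13 to 1.28 CPM for the other members, and in Lean 505 CPM for Scd and 1.09 to 2.57 CPM for the others. Between 71.4% and 100% of the values of these 4 genes were not whole numbers, since reads that matched several places were divided among them, so the fall of the low members cannot be told apart from reads shared with Scd.

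**Figure D1:**
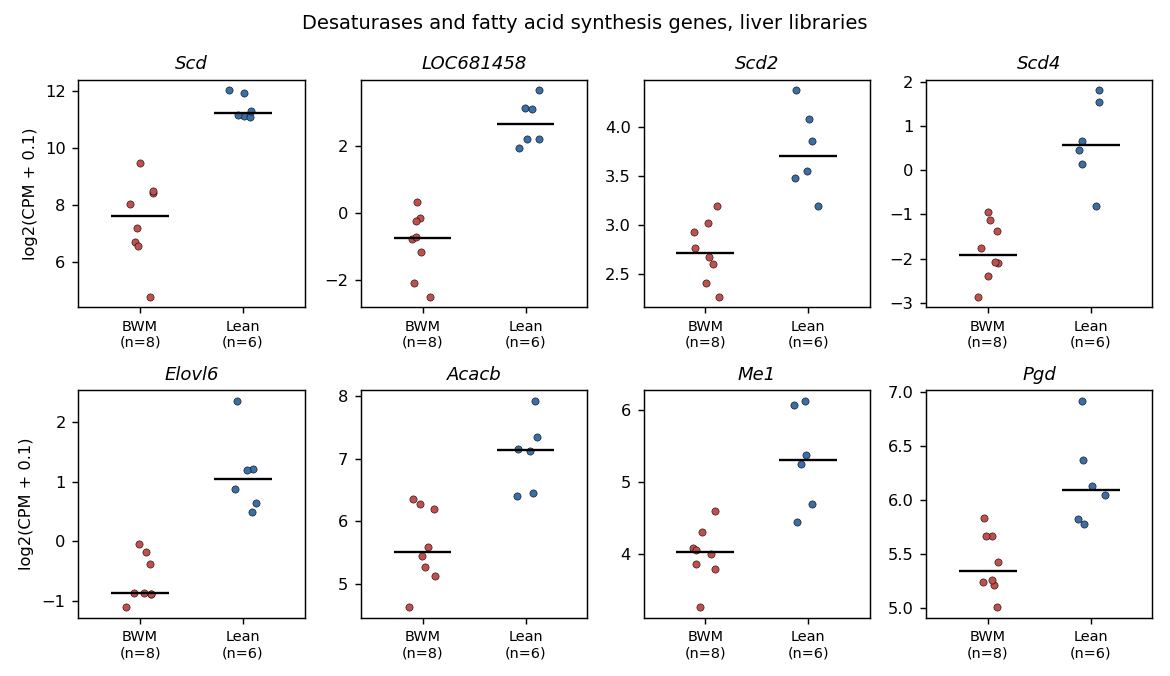
Level of 8 genes in each BWM library (n = 8, left) and Lean library (n = 6, right), as log2(CPM + 0.1) on the vertical axis, with a point for each library and a line at the median; LOC681458 is Scd3. The groups do not overlap for Scd, LOC681458, Scd4, Elovl6 and Acacb, and they overlap for Scd2, Me1 and Pgd.

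Of the 22 genes of fatty acid synthesis, 6 fell, none rose and 16 were not called, and the median log2 fold change was -0.62, against 0.01 over all genes tested. Among those that fell, Pgd, an NADPH-making dehydrogenase of the pentose phosphate pathway, had 32.1 to 57.1 CPM (median 40.6) in BWM and 54.8 to 121 CPM (median 68.1) in Lean, with overlap (-0.80 ± 0.18 SE, adjusted p = 0.034), and its call was lost in 8 of the 14 fits that left out 1 library, those without BWM replicate 2, 5, 6, 7 or 8 or Lean replicate 2, 3 or 4, with adjusted p up to 0.082. Malic enzyme, Me1, had 9.51 to 24.1 CPM (median 16.2) in BWM, against 21.6 to 69.8 CPM (median 39.7) in Lean, also with overlap (-1.42 ± 0.26 SE, adjusted p = 0.01). Acetyl-CoA carboxylase 2, Acacb, whose product malonyl-CoA holds back fatty acid entry into mitochondria, had 24.6 to 82.3 CPM (median 45.8) in BWM and 84.5 to 243 CPM (median 140.3) in Lean without overlap (-1.44 ± 0.29 SE, adjusted p = 0.02). Elovl6, which elongates palmitate, was low in both groups, with 0.362 to 0.87 CPM (median 0.449) in BWM and 1.3 to 5.04 CPM (median 1.97) in Lean (-2.04 ± 0.31 SE, adjusted p = 0.0036). Every BWM library was below every Lean library for Elovl6, and all 14 of its values were fractional.

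The enzymes that build the chain itself did not pass the test. Fasn, fatty acid synthase, had 80.5 to 321 CPM (median 177) in BWM and 148 to 596 CPM (median 222) in Lean, with a log2 fold change of -0.62 ± 0.33 SE, adjusted p = 0.42. Acly, which makes cytosolic acetyl-CoA, had 70.5 to 226 CPM (median 174) in BWM and 133 to 762 CPM (median 205) in Lean (-0.81 ± 0.36 SE, adjusted p = 0.33). Acaca, acetyl-CoA carboxylase 1, had 11.1 to 24.8 CPM (median 17.5) in BWM and 17.8 to 39.5 CPM (median 31) in Lean (-0.61 ± 0.19 SE, adjusted p = 0.15). All 3 overlapped between groups, and Lean replicate 2 had the highest level of the 14 libraries in each. Without it the log2 fold changes were -0.27 for Fasn, -0.22 for Acly and -0.51 for Acaca. The transcription factor genes had close medians, with Srebf1 at 287 CPM in BWM and 328 CPM in Lean (-0.17 ± 0.21 SE, adjusted p = 0.79) and Mlxipl, which encodes ChREBP, at 223 CPM in BWM and 218 CPM in Lean (0.13 ± 0.30 SE, adjusted p = 0.89). Summed over the 22 genes, expression was 2329 to 4104 CPM (median 3449) in BWM and 5281 to 10358 CPM (median 6441) in Lean. Scd made up most of that gap, since the other 21 genes summed to 2182 to 3583 CPM (median 3228) in BWM and 2981 to 6150 CPM (median 3768) in Lean, with overlap. Among the 14 genes of elongation and desaturation that were tested, 3 fell (Scd2 and, counted in both lists, Scd and Elovl6), or 5 without Lean replicate 5, and none rose, with a median log2 fold change of -0.44. Fads2, Elovl5 and Fads1, which make polyunsaturated fatty acids, had log2 fold changes of -1.11 ± 0.32 SE, adjusted p = 0.11, of -1.03 ± 0.25 SE, adjusted p = 0.053 and of -0.61 ± 0.23 SE, adjusted p = 0.25.

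**Figure D2:**
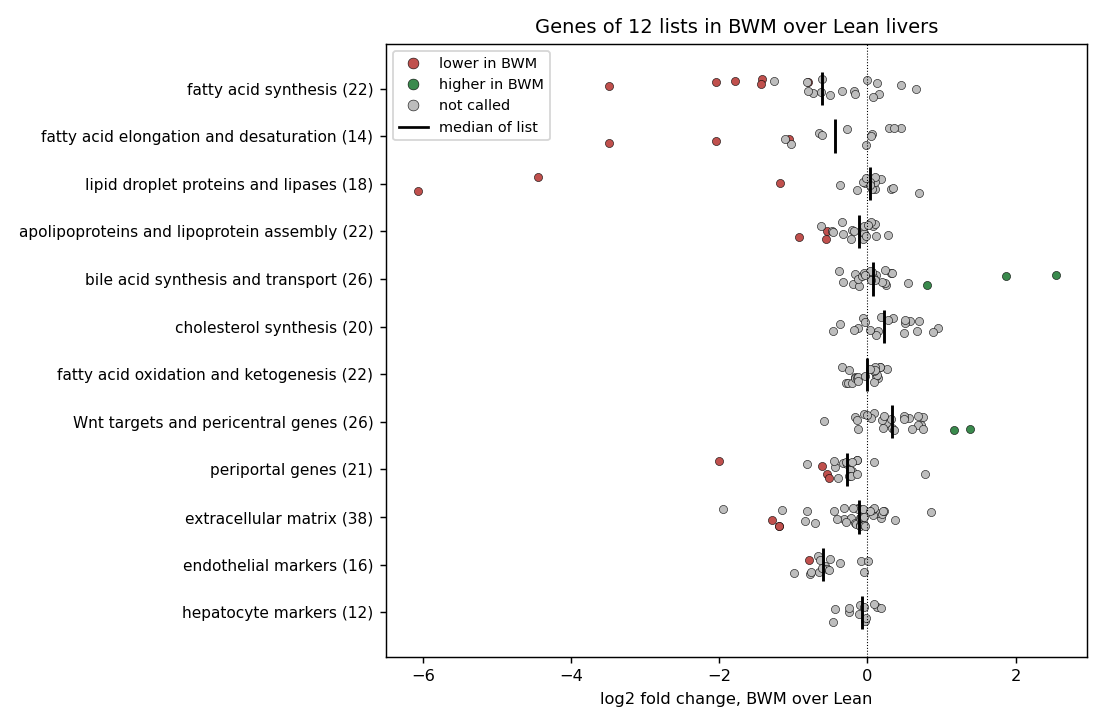
Log2 fold change of BWM over Lean (horizontal axis) for the genes of 12 lists (rows, with the number tested in brackets); each point is a gene, coloured by whether it passed an adjusted p under 0.05, and a bar marks the list's median. Fatty acid synthesis has 6 genes lower and none higher, with its median at -0.62, while fatty acid oxidation has none called and its median at -0.00051.

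Of 18 lipid droplet proteins and lipases tested, 3 fell and none rose, while the list's median was 0.04. Pnpla5, a patatin-like lipase, was nearly silent in BWM, with 0.134 to 6.33 CPM (median 0.374), and abundant in Lean, with 44.2 to 145 CPM (median 69). The groups were far apart, with BWM replicate 1 the highest of its group, and the level was 67.2-fold lower in BWM (-6.07 ± 0.70 SE, adjusted p = 0.00068). Without BWM replicate 1 the log2 fold change of Pnpla5 was -7.25. Its neighbour Pnpla3, which acts on triglycerides and on retinyl esters at the lipid droplet, had 0.575 to 33.3 CPM (median 2.67) in BWM and 17.7 to 527 CPM (median 95.8) in Lean. BWM replicate 1, again the highest of its group, overlapped the lowest Lean library (-4.45 ± 0.90 SE, adjusted p = 0.024), and the call was lost without BWM replicate 2, BWM replicate 7 or Lean replicate 2, with adjusted p up to 0.062. Its log2 fold change was -5.32 without BWM replicate 1 and -3.70 without Lean replicate 2. On the other side of Pnpla5, Sult4a1, a cytosolic sulfotransferase best known from brain, had 0 to 0.624 CPM (median 0.0189) in BWM, where 4 libraries had no count, and 0.482 to 14 CPM (median 4.09) in Lean. Sult4a1 overlapped through BWM replicate 1 alone (-5.92 ± 0.95 SE, adjusted p = 0.0057), without which its log2 fold change was -7.95. Under DESeq2 with a fold change prior, the study's setting, Sult4a1 was not called. Plin3, a coat protein of small lipid droplets, had 7.51 to 13.3 CPM (median 11.8) in BWM and 15.8 to 31.2 CPM (median 25.5) in Lean without overlap (-1.18 ± 0.18 SE, adjusted p = 0.0038). Plin2, the main droplet coat protein of liver, and Pnpla2, the adipose triglyceride lipase gene, had log2 fold changes of -0.05 ± 0.24 SE, adjusted p = 0.95 and of -0.02 ± 0.15 SE, adjusted p = 0.97, and neither was called.

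Sdr16c6 had the largest fall of all the genes named. This short-chain dehydrogenase, known in mice to act on retinol, had 0 to 0.223 CPM (median 0.0684) in BWM, where 2 libraries had no count, and 4.0 to 22.5 CPM (median 11.1) in Lean. Every Lean library was far above every BWM library (-6.96 ± 0.52 SE, adjusted p = 7.7e-06). Igfn1, a protein of the muscle Z-disc, had 0.287 to 4.24 CPM (median 2.41) in BWM and 16.4 to 158 CPM (median 53.6) in Lean, also without overlap (-4.70 ± 0.59 SE, adjusted p = 0.0014).

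Few genes of sugar use were called. Of 28 genes of glycolysis, fructose use and ChREBP, 1 fell, with a list median of -0.08. That gene was Slc2a5, the fructose transporter GLUT5, with 3.37 to 12 CPM (median 6.81) in BWM and 20.3 to 39 CPM (median 30.1) in Lean. No BWM library reached the lowest Lean library (-2.05 ± 0.25 SE, adjusted p = 0.00073). Pklr, liver pyruvate kinase, had 111 to 278 CPM (median 166) in BWM and 169 to 544 CPM (median 294) in Lean (-0.80 ± 0.26 SE, adjusted p = 0.16). The groups overlapped and Pklr was not called. Of 17 glycogen genes, 1 fell, Ppp1r3g, which directs protein phosphatase 1 to glycogen. It had 0.196 to 4.86 CPM (median 2.52) in BWM, against 6.6 to 55.2 CPM (median 18.1) in Lean, without overlap (-3.33 ± 0.52 SE, adjusted p = 0.0046). Irs3, an insulin receptor substrate found in rodents, had 0.906 to 2.63 CPM (median 1.49) in BWM and 3.19 to 11.7 CPM (median 5.9) in Lean, likewise without overlap (-2.06 ± 0.33 SE, adjusted p = 0.0047). None of the 28 genes of gluconeogenesis and insulin signalling was called, and G6pc and Pck1, its 2 defining enzymes, had log2 fold changes of -0.91 ± 0.35 SE, adjusted p = 0.25 and of -0.23 ± 0.13 SE, adjusted p = 0.44.

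**Figure D3:**
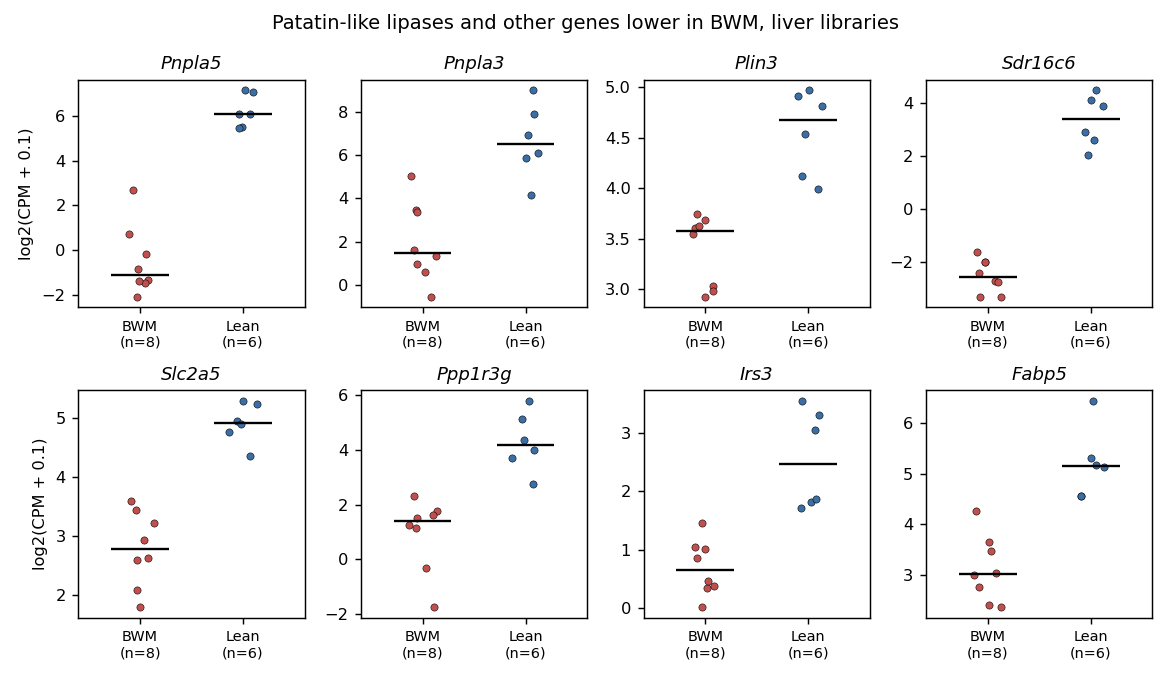
Level of 8 genes in each BWM library (n = 8, left) and Lean library (n = 6, right), as log2(CPM + 0.1) on the vertical axis, with a point for each library and a line at the median. Pnpla3 is the only gene of the 8 whose groups overlap, through BWM replicate 1 at 33.3 CPM.

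Carriers of lipids inside the cell and in plasma moved less. Among 22 genes of lipid uptake and binding, 2 fell and 1 rose. Fabp5, a fatty acid binding protein, had 5.05 to 19.2 CPM (median 8.06) in BWM and 23.4 to 86.3 CPM (median 35.4) in Lean without overlap (-2.10 ± 0.34 SE, adjusted p = 0.0054), whereas Fabp1, the main liver form, had 2299 to 4001 CPM (median 2731) in BWM and 3322 to 6852 CPM (median 4021) in Lean and was not called (-0.59 ± 0.17 SE, adjusted p = 0.11). The other member that fell was Lipc, hepatic lipase (-0.55 ± 0.13 SE, adjusted p = 0.042), whose call was lost in 9 of the 14 fits that left out 1 library (without BWM replicate 2, 4, 5, 6, 7 or 8 or Lean replicate 2, 3 or 4), with adjusted p up to 0.11. Dbi, the acyl-CoA binding protein, which stood outside the lists, had 293 to 591 CPM (median 475) in BWM and 729.6 to 1248 CPM (median 918) in Lean (-1.14 ± 0.18 SE, adjusted p = 0.0046). Of 22 genes of apolipoproteins and lipoprotein assembly, 3 fell, among them Lipc again, and none rose, with a list median of -0.12. Apoa2, a protein of high-density lipoprotein, had 1063 to 1583 CPM (median 1357) in BWM and 1980 to 3559 CPM (median 2454) in Lean (-0.93 ± 0.14 SE, adjusted p = 0.0034). Apoa4 had 1145 to 1489 CPM (median 1259) in BWM and 1648 to 2132 CPM (median 1894) in Lean (-0.54 ± 0.09 SE, adjusted p = 0.0048). Dbi, Apoa2 and Apoa4 each had every BWM library below every Lean library.

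Genes of bile acid synthesis and transport were called in the other direction. Of 26 tested, 3 rose (1 without Lean replicate 3), none fell and 23 were not called, with a list median of 0.08. Cyp7b1, the oxysterol 7-alpha-hydroxylase of the alternative pathway, had 19.2 to 73.3 CPM (median 47) in BWM and 5.45 to 10.1 CPM (median 7.31) in Lean. Even the lowest BWM library was above the highest Lean library, and the level was 5.82-fold higher in BWM (2.54 ± 0.29 SE, adjusted p = 0.00064). Slc27a5, which joins bile acids to CoA before conjugation, had 719 to 1147 CPM (median 922) in BWM and 332 to 649.6 CPM (median 572) in Lean without overlap (0.80 ± 0.16 SE, adjusted p = 0.018), and without Lean replicate 3 its adjusted p was 0.054. Abcb1b, a multidrug efflux pump, had 7.37 to 28.9 CPM (median 19.7) in BWM and 2.1 to 9.56 CPM (median 4.27) in Lean with overlap (1.87 ± 0.39 SE, adjusted p = 0.028). Its call was lost in 7 of the 14 fits that left out 1 library (without BWM replicate 5, 6 or 7 or Lean replicate 1, 2, 3 or 4), with adjusted p up to 0.066. The entry enzyme of the classic pathway, Cyp7a1, had 24.2 to 269 CPM (median 102) in BWM and 48 to 137 CPM (median 72.5) in Lean, with wide overlap (0.55 ± 0.39 SE, adjusted p = 0.59). Cyp8b1, which makes cholic acid, and Baat, which joins bile acids to taurine and glycine, were not called either (-0.33 ± 0.23 SE, adjusted p = 0.58 and 0.31 ± 0.09 SE, adjusted p = 0.11). Csad, which makes taurine, was in another list and had 125 to 351 CPM (median 246) in BWM and 89.2 to 154 CPM (median 118) in Lean, with overlap (1.01 ± 0.19 SE, adjusted p = 0.015). None of the 20 cholesterol synthesis genes was called, 14 of them had a positive log2 fold change and the list median was 0.23.

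Genes that rose outside the bile acid list were of several kinds. Nr1i3, the constitutive androstane receptor, which turns on P450 genes, had 51.3 to 172 CPM (median 124) in BWM and 21.3 to 75.7 CPM (median 45.9) in Lean. The groups overlapped (1.42 ± 0.29 SE, adjusted p = 0.024), and the call was lost without Lean replicate 3 or Lean replicate 4, with adjusted p up to 0.065. Pcp4l1, a gene that lies 19152 bases from Nr1i3, had 5.25 to 13.1 CPM (median 9.25) in BWM and 2.12 to 4.87 CPM (median 3.04) in Lean without overlap (1.42 ± 0.23 SE, adjusted p = 0.0057). Cyp2b1, the best known target of Nr1i3 (1.22 ± 0.48 SE, adjusted p = 0.26), and Cyp3a2 (1.21 ± 0.29 SE, adjusted p = 0.053) were not called, and of 38 P450 and related genes 1 rose, Nr1i3 itself, and 1 fell. Fmo1, a flavin monooxygenase, had 127 to 271 CPM (median 167) in BWM and 33.5 to 123 CPM (median 51.4) in Lean, with the highest Lean library, replicate 5, just under the lowest BWM library (1.55 ± 0.27 SE, adjusted p = 0.0084). Idh2, the mitochondrial isocitrate dehydrogenase that yields NADPH, had 49.5 to 96.9 CPM (median 68.5) in BWM and 21.7 to 45.6 CPM (median 33.7) in Lean (1.13 ± 0.20 SE, adjusted p = 0.01). Mecr, a reductase of the mitochondrial fatty acid synthesis pathway, had 20.5 to 29 CPM (median 25.7) in BWM and 13.3 to 17 CPM (median 15.3) in Lean (0.76 ± 0.09 SE, adjusted p = 0.00068). Neither Idh2 nor Mecr overlapped between groups. The long noncoding RNA LOC102551259 at chromosome 1 was among the largest rises, with 49.6 to 130.4 CPM (median 74.5) in BWM and 4.73 to 17.7 CPM (median 12.4) in Lean, without overlap (2.82 ± 0.32 SE, adjusted p = 0.00064).

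**Figure D4:**
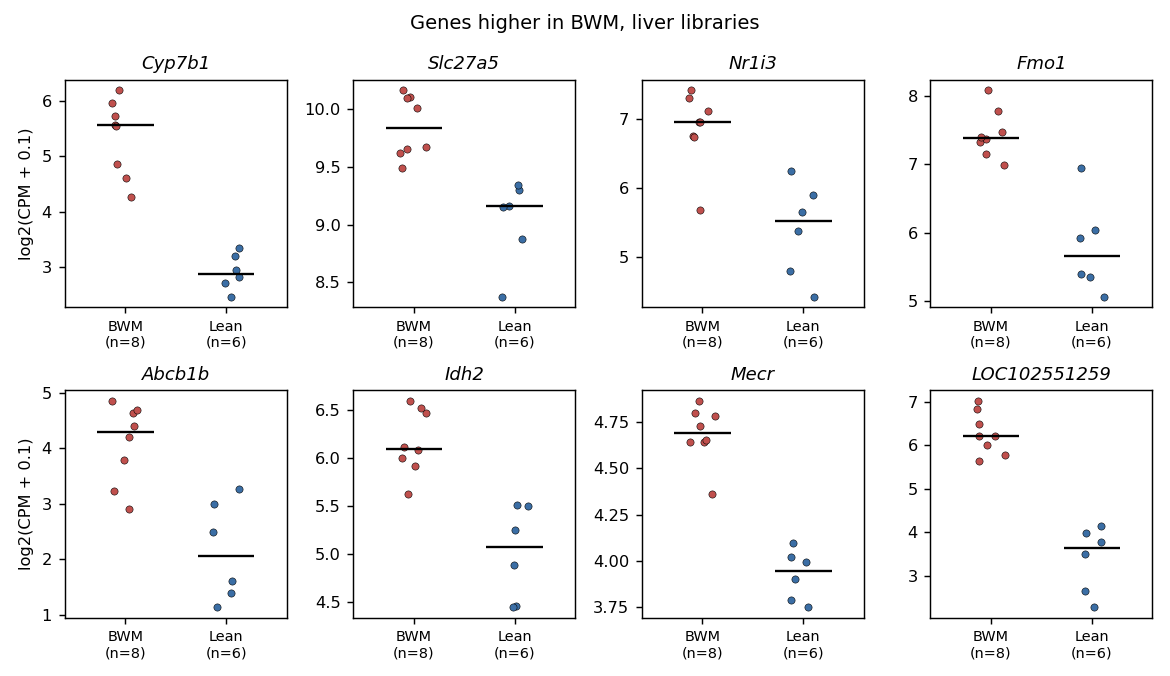
Level of 8 genes in each BWM library (n = 8, left) and Lean library (n = 6, right), as log2(CPM + 0.1) on the vertical axis, with a point for each library and a line at the median. Nr1i3 and Abcb1b overlap between the groups, and for the other 6 genes every BWM library is above every Lean library.

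Liver lobules are zoned, with periportal hepatocytes near incoming blood and pericentral hepatocytes near the outgoing vein. Of 26 Wnt targets and pericentral genes, 2 rose (1 without Lean replicate 1 or 3, and 5 without Lean replicate 5) and none fell, 20 had a positive log2 fold change and the list median was 0.33. Those called were Rhbg, an ammonia transporter, with 3.31 to 7.06 CPM (median 4.78) in BWM and 0.939 to 2.89 CPM (median 2.06) in Lean without overlap (1.39 ± 0.29 SE, adjusted p = 0.024), and Slc13a3, a dicarboxylate transporter, with 11.9 to 25.6 CPM (median 18.8) in BWM and 4.38 to 12.5 CPM (median 7.98) in Lean, with overlap (1.18 ± 0.24 SE, adjusted p = 0.024). Without Lean replicate 1 the adjusted p of Rhbg was 0.051, and without Lean replicate 3 that of Slc13a3 was 0.065. Glul, glutamine synthetase, the defining pericentral gene, had 184 to 435 CPM (median 347) in BWM and 127 to 472 CPM (median 238) in Lean (0.32 ± 0.27 SE, adjusted p = 0.66), and Cyp2e1 had 3239 to 6118 CPM (median 4678) in BWM and 2083 to 4264 CPM (median 2462) in Lean (0.75 ± 0.18 SE, adjusted p = 0.053). Both overlapped and neither was called, though Cyp2e1 was called without BWM replicate 2 or Lean replicate 5 and under 6 of the 12 other settings tried, both DESeq2 fits among them. Of 21 periportal genes, 4 fell and none rose, 19 had a negative log2 fold change and the list median was -0.28. Over all genes tested, 0.828% fell, 0.473% rose and 51.9% had a positive log2 fold change. The 4 periportal genes that fell were Apoa4, already counted among the apolipoproteins, Sdsl, Aldh1b1 and Hal. Sdsl, a serine dehydratase-like enzyme, had 9.94 to 19.7 CPM (median 15.2) in BWM and 21.1 to 25.8 CPM (median 22.5) in Lean without overlap (-0.61 ± 0.12 SE, adjusted p = 0.023). Aldh1b1, a mitochondrial aldehyde dehydrogenase, had 6.45 to 28 CPM (median 10.4) in BWM and 13.2 to 84.5 CPM (median 55) in Lean with overlap (-2.01 ± 0.41 SE, adjusted p = 0.024), and its call was lost without BWM replicate 6 or Lean replicate 1, 2 or 4, with adjusted p up to 0.061. Hal, histidine ammonia-lyase, had 105 to 175 CPM (median 141) in BWM and 169 to 238 CPM (median 199) in Lean (-0.52 ± 0.12 SE, adjusted p = 0.04), and its call held in 3 of the 14 fits that left out 1 library, those without BWM replicate 1 or 4 or Lean replicate 2, with adjusted p up to 0.086 in the others. The number of periportal genes called was 2 without BWM replicate 6, Lean replicate 1 or Lean replicate 4. A fit of all 69 libraries with batch as a term called 1 periportal gene and no pericentral gene, while DESeq2 without a fold change prior called 4 periportal and 5 pericentral genes.

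A pair of neighbouring genes of methyl group use fell. Bhmt, which remakes methionine from homocysteine with betaine, had 401 to 1406 CPM (median 872) in BWM and 1617 to 2698 CPM (median 2211) in Lean (-1.33 ± 0.25 SE, adjusted p = 0.013). Bhmt2, beside it, had 338 to 465 CPM (median 381) in BWM and 493 to 581 CPM (median 545) in Lean (-0.49 ± 0.08 SE, adjusted p = 0.0084). In both every BWM library was below every Lean library. Of the values, 100% for Bhmt and 92.9% for Bhmt2 were not whole numbers, since reads that matched several places were divided. The fall of Bhmt2 therefore cannot be told apart from reads shared with Bhmt. Bhmt2 was chosen for mention after its values were seen. Bhmt and Hal, which fell, and Csad, which rose, made up the 3 called of 41 genes of the urea cycle and amino acid breakdown, where the call of Hal held in 3 of the 14 fits that left out 1 library, as given above.

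Markers of cells other than hepatocytes were seldom called. Of 16 endothelial markers, 1 fell, Oit3, a protein of liver sinusoid endothelium (-0.79 ± 0.18 SE, adjusted p = 0.045). Of these markers, 15 had a negative log2 fold change, against 51.9% positive over all genes tested, and the list median was -0.60. Their summed level was 218 to 389 CPM (median 310) in BWM and 330 to 481 CPM (median 433) in Lean, with overlap, and none of the markers was at 0. The call of Oit3 held only without BWM replicate 1 or 8 or Lean replicate 6, with adjusted p up to 0.12 in the other 11 fits that left out 1 library. In bulk liver, fewer cells of a type and less RNA per cell cannot be told apart. None of the 18 Kupffer cell, 12 T and NK cell, 8 B and plasma cell, 4 neutrophil or 10 cholangiocyte markers tested was called, and 1 of 18 stellate cell and fibroblast markers fell. Summed stellate cell and fibroblast markers were 368 to 558 CPM (median 492) in BWM and 372 to 638.5 CPM (median 443) in Lean, and summed Kupffer cell markers were 336 to 891 CPM (median 489) in BWM and 408 to 754 CPM (median 570) in Lean. Of 38 extracellular matrix genes, 3 fell and none rose, with a list median of -0.11. Timp3, a matrix-bound inhibitor of metalloproteinases, had 7.65 to 21.3 CPM (median 11.5) in BWM and 23.6 to 33.9 CPM (median 29.5) in Lean without overlap (-1.19 ± 0.21 SE, adjusted p = 0.0095). The other members that fell were Dcn, a small matrix proteoglycan (-1.19 ± 0.27 SE, adjusted p = 0.04), and Thbs1, thrombospondin 1 (-1.29 ± 0.30 SE, adjusted p = 0.047). Both lost their calls in most fits that left out 1 library, with adjusted p up to 0.10, and the number called was 1 without BWM replicate 1, 2, 5, 7 or 8 or Lean replicate 2, 3 or 4. The part of the endothelial markers' lower level in these values was not tested.

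C6, a late component of complement made by hepatocytes, had 127 to 213 CPM (median 195) in BWM and 314 to 471 CPM (median 371) in Lean. The groups were well apart (-1.08 ± 0.13 SE, adjusted p = 0.00064), and it was 1 of 2 genes that fell among 43 of complement and coagulation. The number that fell was 1 in each fit that left out a BWM library or Lean replicate 2, 3 or 5, and 3 without Lean replicate 6. Mki67, a proliferation marker, was low in all libraries, with 0.317 to 1.16 CPM (median 0.548) in BWM and 1.55 to 4.33 CPM (median 1.93) in Lean, where replicate 1 was highest (-1.69 ± 0.30 SE, adjusted p = 0.01). It was the only 1 of 28 cell cycle genes called, while 22 of them had a negative log2 fold change and the list median was -0.34. Over all genes tested, 51.9% had a positive log2 fold change. Of the Mki67 values, 92.9% were not whole numbers. Il17rb, the receptor of interleukin 25, had 4.8 to 8.96 CPM (median 6.61) in BWM and 16.2 to 63.8 CPM (median 25.6) in Lean without overlap (-2.22 ± 0.27 SE, adjusted p = 0.00068).

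Of the 43 pathway lists, 21 had no gene called. They included the 22 genes of fatty acid oxidation and ketogenesis, where the list median was -0.00051 and Cpt1a, the entry enzyme, had 194 to 423 CPM (median 299) in BWM and 267 to 477 CPM (median 414) in Lean (-0.34 ± 0.18 SE, adjusted p = 0.41). The 31 PPARalpha targets tested, the 28 ER chaperones and genes of the unfolded protein response, the 23 clock genes, the 30 acute phase proteins, the 95 cytosolic ribosomal proteins and the 80 respiratory chain subunits had none called either. Their medians lay between -0.08 and 0.06. Not every list without a call lay so near 0. The 22 heat shock proteins had a median of 0.29 (19 positive, 3 negative), and the 16 UDP-glucuronosyltransferases 0.16 (14 positive, 2 negative). Of the 80 respiratory chain subunits, 67 had a negative log2 fold change and 13 a positive one.

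The levels of the other batch A groups place both groups on the same scale. Of the 126 genes lower in BWM than in Lean, the Lean median was the highest of the 6 batch A group medians in 120, and the BWM median was the lowest in 22. Of the 72 genes higher in BWM, the Lean median was the lowest of the 6 in 64, and the BWM median was the highest in 26. Over all 15215 genes tested the Lean median was the highest in 17.9% and the lowest in 18.9%, and the BWM median the highest in 14.5% and the lowest in 13.6%. The genes were chosen by the difference between BWM and Lean, so these counts are a description.

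**Figure D5:**
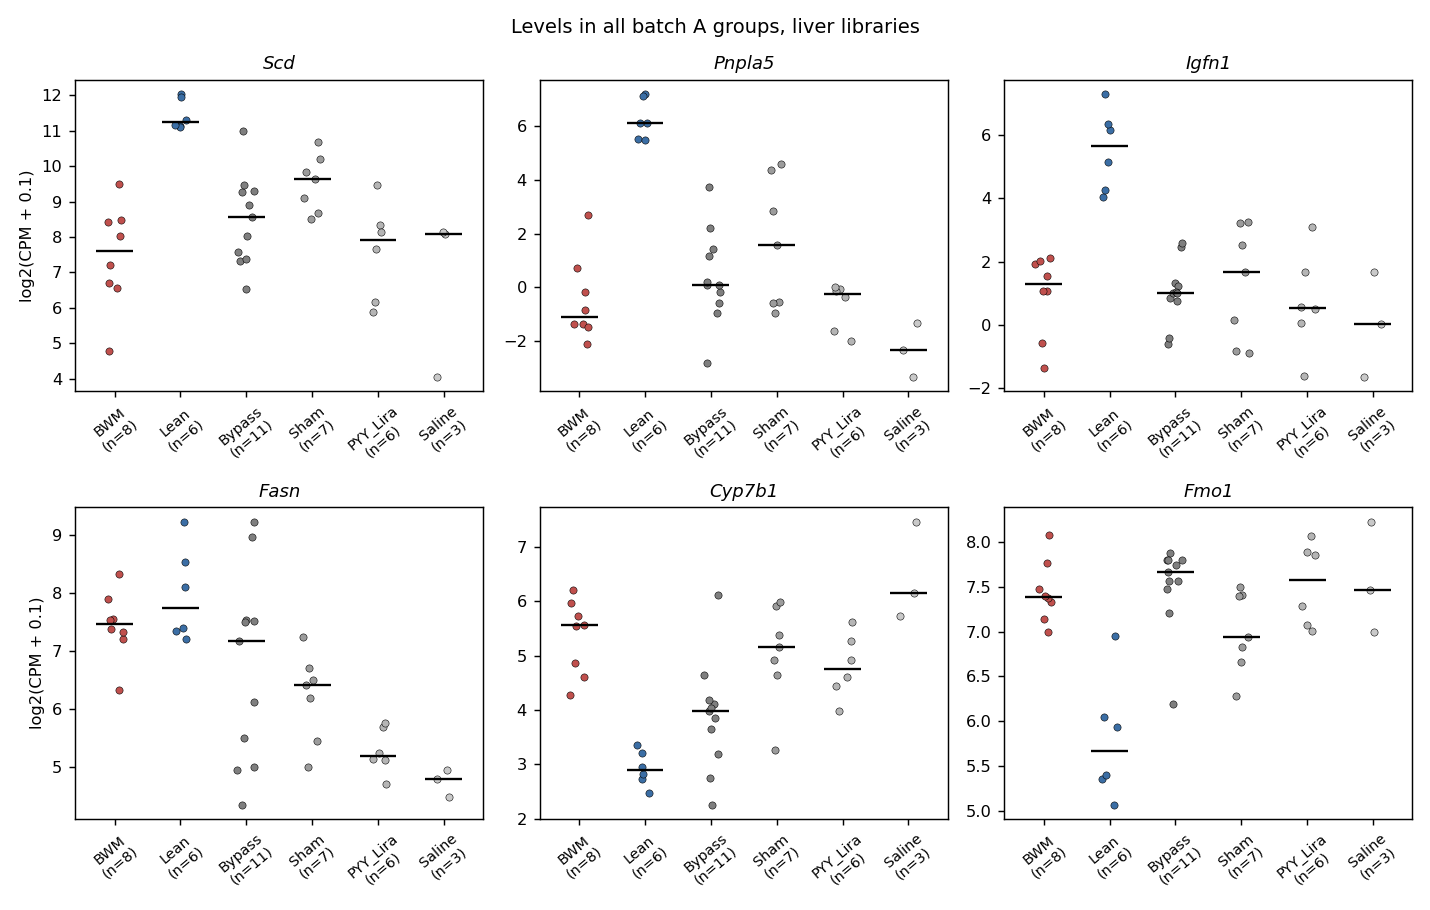
Level of 6 genes in the libraries of the 6 batch A groups (BWM n = 8, Lean n = 6, Bypass n = 11, Sham n = 7, PYY_Lira n = 6, Saline n = 3), as log2(CPM + 0.1) on the vertical axis, with a point for each library and a line at the median. The Lean group has the highest median of Scd, Pnpla5, Fasn and Igfn1 and the lowest of Cyp7b1 and Fmo1, while the BWM medians lie within those of the other groups for Pnpla5, Igfn1, Cyp7b1 and Fmo1, are the lowest for Scd and are second to Lean for Fasn.

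Median Pnpla5 was 0.374 CPM in BWM, 69 CPM in Lean, 0.972 CPM in Bypass, 2.86 CPM in Sham, 0.752 CPM in PYY_Lira and 0.0991 CPM in Saline. The highest library of these last 4 groups, a Sham library at 23.8 CPM, was below the lowest Lean library at 44.2 CPM. Scd had medians of 205 CPM in BWM, 2413 CPM in Lean, 378 CPM in Bypass, 792 CPM in Sham, 243 CPM in PYY_Lira and 269 CPM in Saline. Cyp7b1 had medians of 47.0 CPM in BWM, 7.31 CPM in Lean, 15.7 CPM in Bypass, 35.7 CPM in Sham, 27.1 CPM in PYY_Lira and 70.6 CPM in Saline, and the lowest Bypass library, at 4.68 CPM, was below every Lean library. Fasn followed another order, with medians of 177 CPM in BWM and 222 CPM in Lean, against 145 CPM in Bypass, 84.9 CPM in Sham, 36.5 CPM in PYY_Lira and 27.6 CPM in Saline. For Fasn the BWM and Lean groups had the highest medians, with ranges that overlapped those of Bypass and Sham.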

How the data were processed

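Liver poly(A) RNA was sequenced as stranded, single-end libraries. Per the labels, the authors used bcl2fastq 2.20.0.422, cutadapt 2.5, STAR 2.7.2b on Rnor_6.0 and featureCounts 1.6.4. The deposited table holds estimated counts, which the authors did not normalize and in which reads that matched several places or genes were divided, so that 15.9% of values were not whole. Reads of similar genes, such as the desaturases, are therefore split among them.

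After rounding, the comparison was run in edgeR 4.0.16 under R 4.3.3. TMM factors were estimated over the 41 batch A libraries, filterByExpr by group kept 15215 of 38513 genes, and a robust quasi-likelihood model was fitted to the 8 BWM and 6 Lean libraries only, without covariates since all carry batch A. P-values were adjusted by Benjamini and Hochberg over all genes tested, with thresholds of 0.05 and, in a second count, an absolute log2 fold change of 1. Fold changes are BWM over Lean. The SE beside each was taken from the test, as the absolute log2 fold change divided by the square root of its F statistic. It is not a standard error estimated by the model, so it adds nothing to the p-value. Total counts per library were 18037046 to 26248686, which limits genes of few counts most. No 2 of the 14 libraries held the same values.

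Gene lists (43 pathway and 12 marker lists) were described by counts and medians, with no set test. The members and lists were chosen with earlier results of these data known. Named genes were the 12 highest and 12 lowest log2 fold changes among genes that passed both, where the mean log2 CPM was 1 or more, with no more than 4 unnamed loci a direction, the 4 list members with the lowest p, and defining genes, though some of these are not reported here. Dbi, Irs3, Idh2, Mecr, Il17rb and Bhmt2 were named after their values were seen. Promoter windows were matched by gene identifier to RefSeq's GRCr8 table. The statistics were tested on simulated data. Of 100 genes given an absolute log2 fold change of 1, 83 were recovered, and of 100 given one of 2, 99 were. The simulation also gave 27 false calls, a larger share of its calls than the adjusted p threshold allows. Some of the genes called between BWM and Lean may therefore be false. Alternatives included DESeq2 1.42.0, limma 3.58.1 (voom), other scalings, filters and sample sets, a replicate block and leaving out each library.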

Additional observations from a re-analysis of the deposited data

Results flagged for a closer look

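In each group of libraries the gap between the most extreme library and its nearest neighbour was set against the group's range (Dixon's 95% limits). Of 158 groups looked at, 14 were past the limit. Chance alone gives about 1 in 20 where values are normally distributed. CPM were used without a log scale, and in all 14 the library apart was the highest, so that rate may not hold here. BWM replicate 1 was far above the other BWM libraries in the 3 neighbouring genes of the patatin-like lipase cluster, with Pnpla5 at 6.33 CPM, against 0.134 to 1.55 CPM in the others, Pnpla3 at 33.3 CPM, against 0.575 to 10.9 CPM, and Sult4a1 at 0.624 CPM, against 0 to 0.0438 CPM. BWM replicate 6 was far above the others in both defining genes of gluconeogenesis, with G6pc at 966 CPM, against 209 to 467 CPM, and Pck1 at 3284 CPM, against 2098 to 2454 CPM, and in Dcn, at 5.53 CPM, against 1.69 to 3.48 CPM. BWM replicate 8 had Cyp2b1 at 58.1 CPM, against 6.38 to 29 CPM in the other BWM libraries.

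Among Lean libraries, replicate 2 stood above the others in 3 lipid genes, with Elovl6 at 5.04 CPM, against 1.3 to 2.22 CPM, Acly at 762 CPM, against 133 to 262 CPM, and Fabp5 at 86.3 CPM, against 23.4 to 39.5 CPM. Lean replicate 1 had Mki67 at 4.33 CPM, against 1.55 to 2.08 CPM, and Pdlim4 at 14.7 CPM, against 0.817 to 5.59 CPM. Lean replicate 3 had Il17rb at 63.8 CPM, against 16.2 to 33.3 CPM, and Lean replicate 5 had Fmo1 at 123 CPM, against 33.5 to 65.9 CPM. Why these libraries stood apart was not tested.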

How the results depend on the processing

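Each result was recomputed under 12 other settings and in 14 fits that each left out 1 library. None of the 74 genes named changed direction with a call, and of the 52 called, 39 kept their call in every fit that left out 1 library. Of the 198 genes called, 88 were called in all 14 of these fits and 34 also under all 12 settings. DESeq2 called 556 genes without a fold change prior and 547 with it, the fit of all 41 batch A libraries 318, the fit of all 69 libraries with batch as a term 86, and fits that left out 1 library 106 to 255. The 103 genes that differed by 2-fold or more became 225 under DESeq2 without a prior and 69 with the prior, which shrinks fold changes and which the study used. Their number was 142 in the fit of all 41 batch A libraries and 69 in the fit of all 69 libraries. It was 75 with the replicate number as a block and 67 to 128 with 1 library left out. The 41 pathway list genes called became 97 and 95 under DESeq2 without and with the prior, 19 in the fit of all 69 libraries and 26 to 53 with 1 library left out. The cause of these differences was not tested. DESeq2 also called 6 named genes that edgeR did not, Fads2, Elovl5, Fabp1, Baat, Cyp2e1 and Cyp3a2, of which Elovl5 was called without BWM replicate 1 or Lean replicate 5 or 6, Cyp3a2 without BWM replicate 1 or Lean replicate 5 and Baat without Lean replicate 5. In the fit of all 69 libraries 22 of the named calls were lost, among them Elovl6, Acacb, Dbi, Apoa4, Bhmt, Mecr, Slc27a5, Nr1i3 and Abcb1b, and in the fit of all 41 batch A libraries 8, among them Csad, Pcp4l1, Rhbg and Abcb1b. Counts of genes called stayed within 1.5 times under limma-voom with quality weights (234), RLE factors (213), no filter (198) and the stricter filter (193). The same held for counts not rounded (211) and no robust estimation (197). TMM over the 14 libraries gave the same 198 calls as the main fit and the same median log2 fold change, 0.01. That setting was therefore no separate check. Replicate numbers 1 to 6 occur in both groups, but same-numbered libraries deviated together in only 3 of 6 pairs (correlation over 0.1), and 1 Lean library correlated best with its own number, so the numbers were not taken as pairs. With the replicate number as a block, 111 genes (82 shared with the 198) and 25 list genes were called, and 19 of the named calls were lost, among them Ppp1r3g, Fabp5, Kcnj15, Pdlim4, Pnpla3, Apoa4, Bhmt2, Nr1i3, Slc27a5, every periportal call (Apoa4, Sdsl, Aldh1b1 and Hal) and both pericentral ones (Rhbg and Slc13a3). Genes under about 1 CPM rest on few reads in each library, and counts of divided reads, as in the desaturases, carry the uncertainty of that division. This limit also holds for Slc2a5, Plin3 and Reep6, where 78.6% of values were not whole, and for Dbi, with 85.7%.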

Other observations

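Several genes outside the lists had changes as large as those of the lipid genes. Kcnj15, a potassium channel, had 2.58 to 11.9 CPM (median 5.31) in BWM and 9.07 to 67.5 CPM (median 32.9) in Lean, with overlap (-2.41 ± 0.42 SE, adjusted p = 0.0089, edgeR). Pdlim4, an actin-binding protein, had 0.401 to 1.37 CPM (median 0.869) in BWM and 0.817 to 14.7 CPM (median 4.24) in Lean, also with overlap (-2.58 ± 0.48 SE, adjusted p = 0.012), where Lean replicate 1 was highest and the log2 fold change without it was -1.97. Prkcdbp, the caveolar coat protein cavin-3, had 3.13 to 23.3 CPM (median 8.57) in BWM and 30.8 to 76.4 CPM (median 55.4) in Lean without overlap (-2.28 ± 0.37 SE, adjusted p = 0.0057). Wfdc21, a secreted protein with a WAP domain, had 13.8 to 32 CPM (median 21.6) in BWM and 55.8 to 184 CPM (median 83.1) in Lean (-2.17 ± 0.29 SE, adjusted p = 0.0018), and Reep6, a protein that shapes the endoplasmic reticulum, had 30.3 to 70.7 CPM (median 43.1) in BWM and 74.9 to 132 CPM (median 112) in Lean (-1.24 ± 0.17 SE, adjusted p = 0.0023). In both every BWM library was below every Lean library. Fam89a, a gene of little known function, rose and had 14.9 to 37.6 CPM (median 21.2) in BWM and 4.44 to 11.8 CPM (median 7.93) in Lean without overlap (1.63 ± 0.27 SE, adjusted p = 0.0069). Prkcdbp, Wfdc21 and Reep6 were chosen after their values were seen.

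Besides the desaturase and patatin-like lipase clusters, the genes called in the same direction within 100 kb of each other were the pairs of Bhmt2 and Bhmt, Pgd and Apitd1, Anxa7 and Cfap70, Gas6 and LOC103693998, LOC102549542 and Elovl6, Slc35d2 and Zfp367, all lower in BWM, and Pcp4l1 and Nr1i3, Zfp189 and Acnat1, and the 3 genes Tuba4a, Resp18 and Abcb6, all higher. By biotype, 64 of the 72 genes higher (88.9%) and 116 of the 126 genes lower (92.1%) were protein coding, against 86.9% of all genes tested, and 7 in each direction (9.72% and 5.56%) were long noncoding RNAs, against 4.88% of all genes tested.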
